A study of Mus musculus with 24 samples.

Results

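Nrp2, Tbc1d9, Trim5 and Scai are 4 of the 18470 gene rows in the count table. They were chosen by their counts in the WT libraries, which were higher in lung than in circulating memory B cells, and 4 of 4 passed the filter on low counts, which kept 6779 genes. The lung-to-circulating difference in WT therefore picked them and is given here as a description without a test. The question left to the data is whether the pattern is present in mice that lack Scap in B cells, whose libraries played no part in the choice. The study compared sorted memory B cells, csMBC in the titles, of mice that inhaled house dust mite (HDM) extract and met the allergen again 6 weeks later. The WT mice were SCAP +/+ hCD20-TamCre and the cKO mice SCAP fl/fl hCD20-TamCre, so both genotypes carry a tamoxifen-activated Cre that is expressed in B cells. Scap, whose product escorts the SREBP transcription factors to the Golgi, was deleted before the recall response. Each genotype gave circulating cells and, from lung, CCR6+CD69+ and CCR6-CD69- cells, with 4 libraries in each of the 6 groups and 2 batches that each hold 2 libraries of every group. Circulating libraries too carry lung as their source in the labels. Whether replicates were separate animals is not stated, so a p-value here measures the spread between libraries, which may be technical. In such bulk samples, fewer cells of a type and less RNA per cell cannot be told apart.

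The 4 genes have different roles. Nrp2 encodes neuropilin-2, a transmembrane co-receptor for class 3 semaphorins, where it works with plexins, and for VEGF family ligands, and it is well known from lymphatic endothelium and from myeloid cells. Tbc1d9 encodes a protein with a TBC domain, the domain by which such proteins switch off Rab GTPases of membrane traffic. Trim5 belongs to the tripartite motif family, whose members are often ubiquitin ligases of antiviral defence; in the mouse it lies in a cluster of closely related genes that includes Trim12 and Trim30 copies. Scai encodes a nuclear cofactor that binds the myocardin-related transcription factor Mrtfa and lowers the transcription that Mrtfa drives with serum response factor, Srf, at actin and adhesion genes. CD69 and CCR6 are surface markers used to sort lung-resident memory B cells.

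The promoters of the 4 genes are printed here to show whether genes picked for 1 expression pattern share sequence features. Each window runs from 250 bases before to 50 after the start in RefSeq's table for GRCm38.p6, is written 5′ to 3′ on the gene's strand, and has matches to 5 searched motifs in capitals. The submitters' notes name build mm39 for the reads, so these coordinates are those of the reference table only.
Nrp2: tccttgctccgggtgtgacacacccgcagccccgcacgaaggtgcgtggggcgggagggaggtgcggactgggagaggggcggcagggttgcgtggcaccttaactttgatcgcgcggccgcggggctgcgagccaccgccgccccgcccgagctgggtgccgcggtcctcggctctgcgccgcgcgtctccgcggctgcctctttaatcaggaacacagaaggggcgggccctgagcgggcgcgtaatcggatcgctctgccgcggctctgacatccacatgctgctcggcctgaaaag
Tbc1d9: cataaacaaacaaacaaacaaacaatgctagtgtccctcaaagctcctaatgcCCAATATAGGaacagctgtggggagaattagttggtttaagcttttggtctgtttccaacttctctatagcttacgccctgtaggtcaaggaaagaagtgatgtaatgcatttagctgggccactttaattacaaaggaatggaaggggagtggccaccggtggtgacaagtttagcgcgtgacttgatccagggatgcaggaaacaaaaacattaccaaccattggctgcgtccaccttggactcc
Trim5: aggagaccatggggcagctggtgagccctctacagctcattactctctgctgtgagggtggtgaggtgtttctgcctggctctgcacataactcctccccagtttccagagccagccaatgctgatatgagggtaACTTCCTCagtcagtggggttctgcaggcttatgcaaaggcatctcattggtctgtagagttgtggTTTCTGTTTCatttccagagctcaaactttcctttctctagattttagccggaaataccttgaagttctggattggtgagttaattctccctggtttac
Scai: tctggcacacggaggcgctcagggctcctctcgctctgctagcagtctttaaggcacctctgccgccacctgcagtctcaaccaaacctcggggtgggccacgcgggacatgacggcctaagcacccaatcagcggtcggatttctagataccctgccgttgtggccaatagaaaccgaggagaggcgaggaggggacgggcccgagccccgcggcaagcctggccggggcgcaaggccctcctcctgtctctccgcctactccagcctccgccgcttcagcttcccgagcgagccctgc
The Nrp2 window lies at chr1:62703067-62703366 on the plus strand and holds 37 CpG, an observed-to-expected CpG ratio of 0.99, higher than in 93.6% of 32841 promoters. The Scai window, at chr2:39190681-39190980 on the minus strand, holds 24 CpG at a ratio of 0.74. The Tbc1d9 window, at chr8:83165102-83165401 on the plus strand, holds 5 CpG at a ratio of 0.33, close to the median of 0.384. The Trim5 window, at chr7:104288057-104288356 on the minus strand, holds 1 CpG at a ratio of 0.056, and 6.88% of promoters have a lower ratio. CpG density thus differed widely among the 4. The motifs, chosen after the expression values were known and searched on both strands, were the interferon-stimulated response element TTTCNNTTTC, the sterol regulatory element TCACNCCAC, the EGR element GCGNGGGCG, the CArG box bound by Srf, and the PU.1 element GAGGAAGT. The Trim5 capitals mark a PU.1 element on the opposite strand at position -115 and an interferon-stimulated response element at position -49, motifs held by 3.20% and 3.44% of all promoters of the same length. The Tbc1d9 capitals mark a CArG box at position -197, a motif in 1.63% of promoters. The Nrp2 and Scai windows held none of these letters, nor did any of the 4 hold the sterol element, which 1.24% of promoters held, or the EGR element, held by 5.55%.

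Total counts ran from 129025 in cKO lung CCR6-CD69- replicate 4, which had 2134 genes detected, to 8566243, and 2 libraries, that one and WT circulating replicate 2 with 356782 counts, were under 500000. A count of 3 corresponds to 0.350 to 23.3 CPM (the count divided by the library's total and multiplied by 1000000), a limit that covers counting error only. B cell markers (5 of 10 have a row) summed to 1684 to 5030 CPM in the 24 libraries, with group medians of 2600 and 2421 CPM in WT and cKO circulating cells and 3655 to 4327 CPM in the 4 lung groups. Plasma cell markers (2 of 6) summed to 317 to 2641 CPM in circulating, 85.1 to 279 CPM in lung CCR6+CD69+ and 338 to 4912 CPM in lung CCR6-CD69- libraries. T and natural killer cell markers (8 of 14) summed to 1206 to 3234 CPM in the circulating libraries and 0 to 266 CPM in the lung ones, and dendritic cell markers (8 of 12) to 4423 to 7439 CPM against 1411 to 5371 CPM. These lists move with the lung-to-circulating comparison, and their part in the results below was not tested. In WT circulating libraries Nkg7, Eomes, Ncr1, Cd4 and Klrb1c averaged 587, 520, 307, 247 and 178 CPM. The T cell genes Cd3e, Cd3d and Trac averaged only 38.6, 37.9 and 3.98 CPM there. In lung CCR6-CD69- libraries Cd4 was the highest of that list, at 117 CPM in WT and 148 CPM in cKO. In WT circulating libraries Irf8 and Tcf4 had the highest means of the dendritic cell list, 3011 and 1210 CPM. Irf8, Flt3, Clec10a, Cd209a and Ccr9 averaged higher there than in WT lung CCR6+CD69+ libraries, while Xcr1 and Zbtb46 (0.221 against 24.3 CPM) averaged lower. Tcf4 differed little, with 1142 CPM in WT lung CCR6+CD69+ libraries. Against WT lung CCR6-CD69- libraries, Irf8, Tcf4, Clec10a, Cd209a and Ccr9 averaged higher in WT circulating ones. Flt3 (89.2 against 96.0 CPM) and Zbtb46 averaged lower than in that lung group, and Xcr1 was at 0 in both. Scap itself averaged 104 ± 84.5 CPM (SD, n = 4) in WT and 223 ± 152 CPM in cKO circulating libraries, and 86.6 to 149 CPM in WT against 82.7 to 90.0 CPM in cKO lung groups. WT and cKO ranges of Scap overlap in each population, so these counts do not by themselves show the deletion, which is taken from the stated genotypes. Counts over a whole gene include any reads outside the deleted part, and the share of such reads was not tested.

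**Figure D1:**
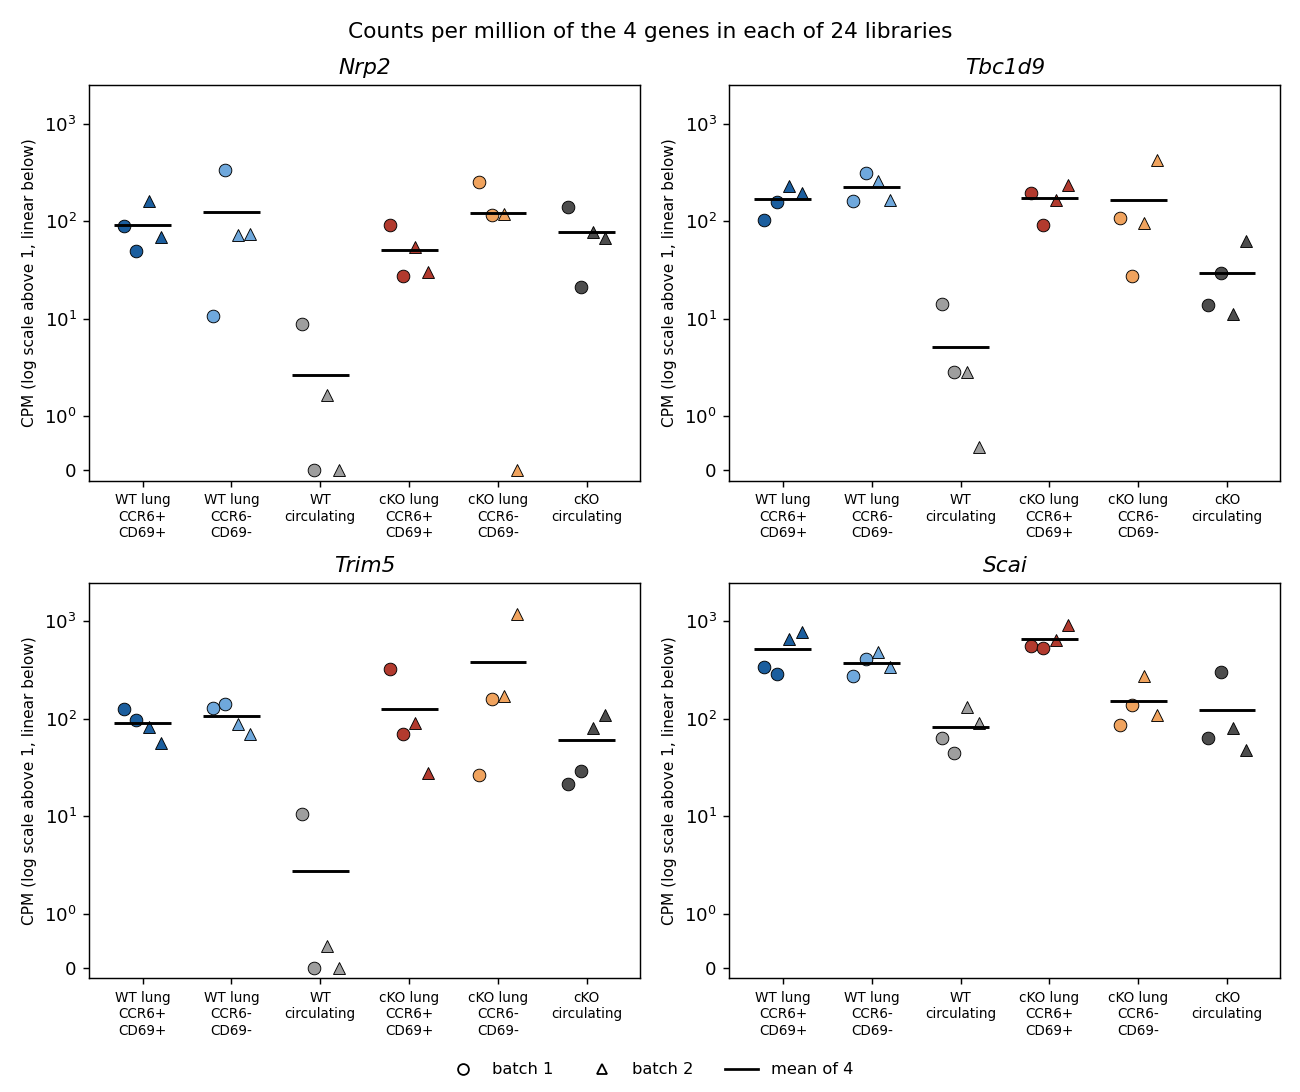
CPM of Nrp2, Tbc1d9, Trim5 and Scai (vertical axes, log scale above 1 CPM and linear below) in each of the 24 libraries by group; circles are batch 1, triangles batch 2 and lines the mean of 4. The WT circulating group has the lowest mean for all 4 genes, though for Scai its median of 76.8 CPM is above the cKO circulating one of 71.7 CPM. For Nrp2 and Trim5 all cKO circulating libraries lie above every WT circulating one, an order that 0.708% of all genes showed. Nothing is read from it, since low WT circulating counts chose the genes.

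In the WT libraries that chose the genes, all 8 lung libraries lay above all 4 circulating ones for each of the 4 genes, an arrangement that 2.73% of the 6779 genes had. On the log2 scale of the edgeR fit, lung CCR6+CD69+ exceeded circulating by 5.22 ± 1.35 (SE) for Nrp2, 4.71 ± 1.08 for Tbc1d9, 4.69 ± 1.17 for Trim5 and 2.60 ± 0.65 for Scai. Lung CCR6-CD69- exceeded circulating by 5.16 ± 1.32, 5.07 ± 1.09, 4.92 ± 1.18 and 2.14 ± 0.64 in the same order. The CCR6+CD69+ and CCR6-CD69- lung populations themselves were within 1 SE of each other for all 4 genes, with differences of 0.06 for Nrp2, -0.36 for Tbc1d9, -0.23 for Trim5 and 0.46 for Scai.

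In fitted values the cKO libraries differed from gene to gene. Scai was higher in lung CCR6+CD69+ cells, while its CCR6-CD69- value was near 0 and of unstable sign. Tbc1d9 was higher in both lung populations, though its CCR6-CD69- value fell from 2.37 to 1.13 without 1 shallow library. The Trim5 value in CCR6-CD69- cells came mainly from that same library. Nrp2 was lower in CCR6+CD69+ cells, with a wide interval, and its value in CCR6-CD69- cells was small and of unstable sign. Of the 4 genes, 0 passed an adjusted p of 0.05 in edgeR for lung CCR6+CD69+ against circulating, where 1.53% of the genes tested did and 0.0738% did as higher in lung. Against circulating, 0 of 4 passed for lung CCR6-CD69- (0.31% of all genes did), and 0 of 4 for the mean of both lung groups (2.4%). In simulated data the same edgeR test called 12% of genes changed 4-fold for lung CCR6+CD69+ against circulating. Not passing therefore does not show that a difference is absent. At an unadjusted p under 0.05, Tbc1d9 and Scai passed in the first comparison, Tbc1d9 and Trim5 in the second and Tbc1d9 in the third, where 12.8%, 14.2% and 15.1% of all genes did. Under DESeq2, whose adjusted threshold passed 7.49%, 8.15% and 8.61% of the genes it tested, the same genes passed: Tbc1d9 and Scai, Tbc1d9 and Trim5, and Tbc1d9. How far the cKO difference departs from the WT one is given as a value without a test, because the WT libraries chose the genes.

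**Figure D2:**
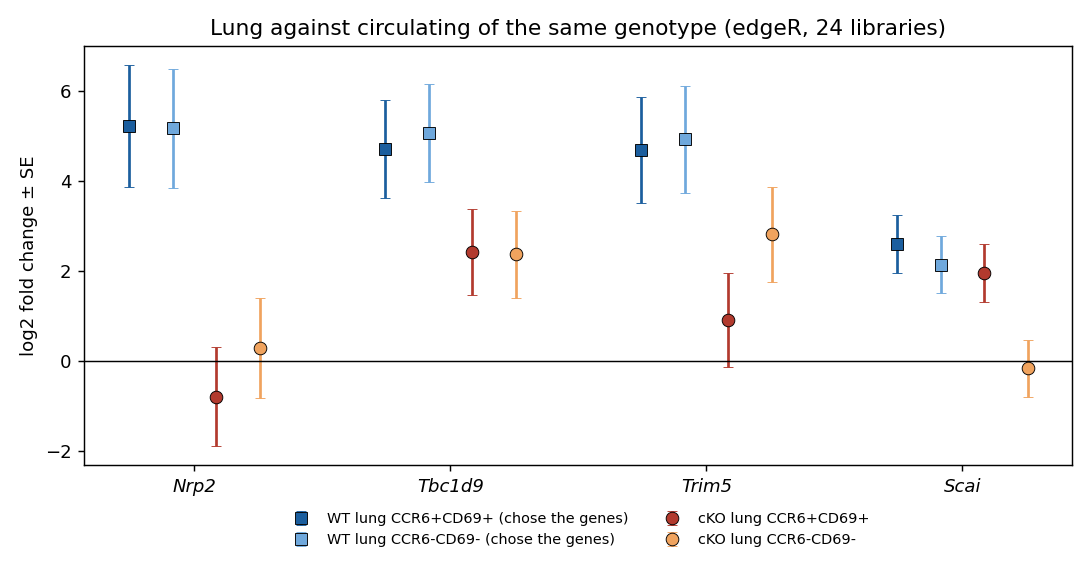
Log2 fold change ± SE of each lung population against circulating cells of the same genotype (vertical axis), for WT (squares, the comparison that chose the genes) and cKO (circles). The cKO values, lung CCR6+CD69+ first, sit at -0.79 and 0.30 for Nrp2, at 2.42 and 2.37 for Tbc1d9, at 0.91 and 2.82 for Trim5, and at 1.96 and -0.16 for Scai.

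Nrp2, the semaphorin co-receptor, was at overlapping levels in cKO lung and cKO circulating libraries. In WT circulating libraries 1 to 4 it stood at 8.84, 0, 1.62 and 0 CPM, which are 20, 0, 4 and 0 counts; the 2 zeros allow up to 8.41 and 1.30 CPM. In cKO circulating libraries it stood at 139.7, 20.9, 78.2 and 66.9 CPM, all above every WT one. These groups do not overlap, in the order that 0.708% of all genes showed; nothing is read from this, since low WT circulating counts chose the gene. The cKO group mean of 76.4 ± 48.9 CPM (SD, n = 4) compares with 2.62 ± 4.22 CPM in WT. The fitted cKO excess in circulating cells was 5.04 ± 1.32 (log2, SE), given without a test. In cKO lung CCR6+CD69+ libraries Nrp2 was at 91.3, 27.3, 54.8 and 30.2 CPM, within the range of the cKO circulating ones, and the WT counterparts were at 88.8, 49.9, 161 and 68.7 CPM. The lung CCR6+CD69+ minus circulating difference in cKO was -0.79 (95% interval -2.98 to 1.41, edgeR adjusted p = 0.797, exact permutation p = 0.4, two-sided), and 0 of 4 lung libraries exceeded the highest circulating one. The ratio of means was 0.666, with 0.738 in batch 1 and 0.586 in batch 2. In cKO lung CCR6-CD69- libraries it was at 254, 115, 119 and 0 CPM, the 0 being the library of 129025 counts, where up to 23.3 CPM would go unseen. That difference from circulating was 0.30 (interval -1.91 to 2.50, edgeR adjusted p = 0.923), while the mean of log2 CPM was 0.81 lower in lung (-0.81, exact permutation p = 0.914), so the sign depends on how the 0 is weighed. WT lung CCR6-CD69- libraries spread from 10.7 to 338 CPM, with 71.6 and 73.3 CPM between.

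The 2 highest Nrp2 values of the series, 338 CPM in WT lung CCR6-CD69- replicate 2 and 254 CPM in cKO lung CCR6-CD69- replicate 1, fell in the 2 libraries led by Chil3, a gene of alveolar macrophages. Summed CPM of 16 macrophage and monocyte markers with a row, of 18 listed, was 38426 and 52166 in those 2 libraries and 63.4 to 5222 in the other 22. Chil3 alone gave 28598 and 32558 CPM there. Of those 16 markers, Marco was at 0 in each WT group, Marco and Siglecf were at 0 in cKO circulating libraries, and 0 of 16 were at 0 throughout either cKO lung group. Marco was not present in all cKO lung libraries, however. It ran from 0 to 59.4 CPM in CCR6-CD69- and from 0 to 7.81 CPM in CCR6+CD69+ ones. Among the other 22 libraries the marker sum did not separate WT from cKO circulating cells, 1844 to 4213 CPM in WT and 794 to 5222 CPM in cKO. Endothelial markers (7 of 10 have a row) summed to 371 CPM in WT lung CCR6-CD69- replicate 2 and 610 CPM in cKO lung CCR6-CD69- replicate 1. Their highest sum, 819 CPM, was in cKO circulating replicate 2, where Nrp2 was at 20.9 CPM, and Pecam1 alone gave 799 CPM of it. Single markers ran otherwise than the sum. Pdpn and Vwf reached 137 and 119 CPM in WT and 127 and 363 CPM in cKO lung CCR6-CD69- libraries. In every other group they were at most 20.4 and 43.2 CPM. Kdr reached 194 CPM in cKO lung CCR6-CD69- and 45.4 CPM in WT circulating libraries. Tek, Prox1 and Cldn5 were at most 14.7 CPM in any group. Without the 2 Chil3-led libraries the cKO lung CCR6-CD69- minus circulating difference of Nrp2 was -0.18. The part of macrophage or endothelial RNA in the lung values was not tested.

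**Figure D3:**
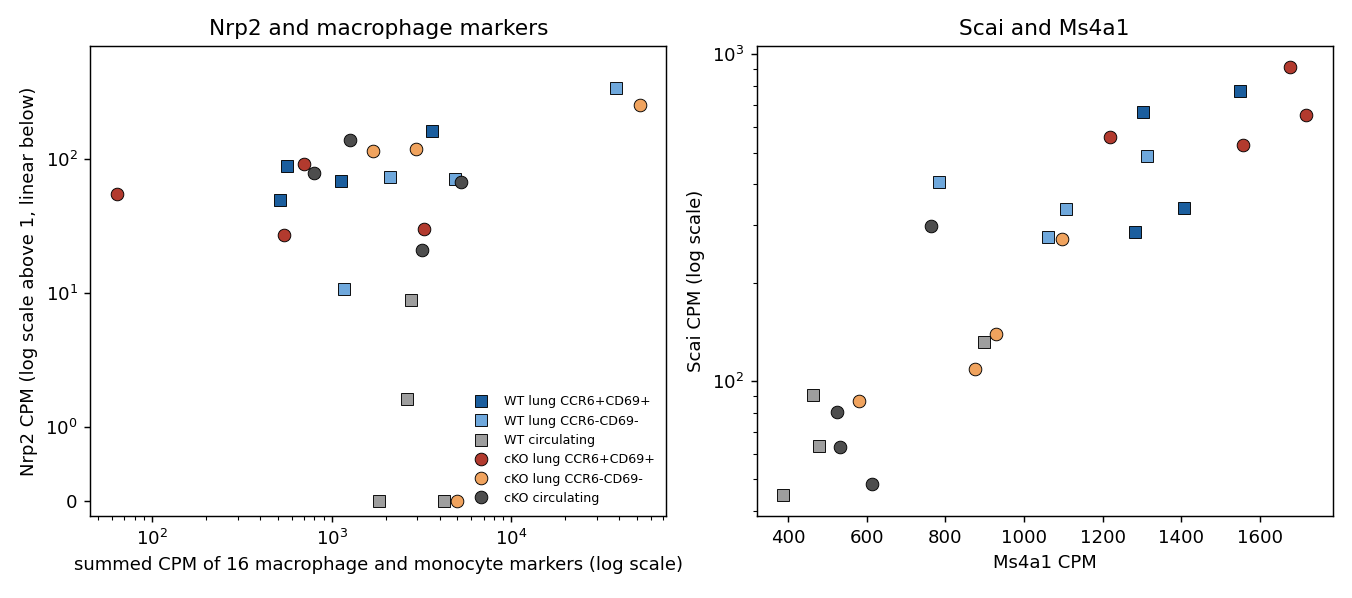
Left, Nrp2 CPM (log scale above 1, linear below) against the summed CPM of 16 macrophage and monocyte markers (log scale); right, Scai CPM (log scale) against Ms4a1 CPM, 1 point per library and coloured by group. The 2 libraries with marker sums of 38426 and 52166 CPM hold the highest Nrp2 values, and Scai is highest where Ms4a1 is highest.

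Tbc1d9, the TBC-domain gene, was higher in value in both cKO lung populations than in cKO circulating cells. In cKO lung CCR6+CD69+ libraries 1 to 4 it stood at 195, 92.1, 163 and 235 CPM, and in cKO circulating ones at 13.7, 29.2, 11.1 and 62.6 CPM. All 4 lung libraries lay above all 4 circulating ones, as for Scai and for 5.37% of the genes tested. The difference was 2.42 ± 0.95 (log2, SE; 95% interval 0.52 to 4.32), with an unadjusted p of 0.0135 and an adjusted p of 0.262 in edgeR. The exact permutation test gave p = 0.0286, two-sided, the smallest that 4 against 4 libraries allow. The ratio of group means was 5.88, and it was 6.69 in batch 1 and 5.41 in batch 2. In cKO lung CCR6-CD69- libraries Tbc1d9 was at 107, 27.4, 94.8 and 426 CPM, and 3 of 4 lay above the highest circulating library. This difference was 2.37 ± 0.97 (interval 0.44 to 4.3, edgeR adjusted p = 0.259), with an exact permutation p of 0.0857. The value of 426 CPM came from the shallowest library, and without cKO lung CCR6-CD69- replicate 4 the difference was 1.13 (edgeR adjusted p = 0.591). DESeq2 called both differences, at 2.38 (adjusted p = 0.0499) and 2.95 (adjusted p = 0.0101). In each comparison the other 19 of 20 alternatives did not pass. The circulating level again stood higher in cKO, 29.2 ± 23.7 CPM against 5.05 ± 6.16 CPM (SD, n = 4) in WT, where the 4 libraries were at 14.1, 2.80, 2.84 and 0.433 CPM; the lowest cKO libraries overlap the highest WT one. In lung the fitted cKO minus WT differences were 0.12 in CCR6+CD69+ and -0.29 in CCR6-CD69- cells, without a test. WT lung libraries were at 104, 155, 228 and 194 CPM in the CCR6+CD69+ population and at 161, 313, 258 and 165 CPM in the other. Between the 2 cKO lung populations the difference was 0.05 (interval -1.81 to 1.91, edgeR adjusted p = 0.996), and 1.27 without cKO lung CCR6-CD69- replicate 4 (edgeR adjusted p = 0.711).

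Trim5, the tripartite motif gene, ranged from 21.4 to 1178 CPM among the cKO libraries. In cKO circulating libraries 1 to 4 it stood at 21.4, 29.2, 81.1 and 108 CPM, all above every WT circulating library (10.6, 0, 0.405 and 0 CPM). That order, which 0.708% of all genes showed, is not read further, since low WT circulating counts chose the gene. The group means were 60.1 ± 41.8 and 2.75 ± 5.24 CPM (SD, n = 4), and the fitted cKO excess was 4.39 ± 1.2 (log2, SE), without a test. In cKO lung CCR6+CD69+ libraries it was at 321, 69.8, 90.8 and 27.7 CPM, and only replicate 1 lay above all the circulating libraries. The difference from circulating was 0.91 (95% interval -1.17 to 2.99, edgeR adjusted p = 0.740, exact permutation p = 0.571). It was not stable between batches, with a ratio of means of 7.73 in batch 1 and 0.625 in batch 2, and it was -0.025 without cKO lung CCR6+CD69+ replicate 1. In cKO lung CCR6-CD69- libraries Trim5 was at 26.7, 161, 169 and 1178 CPM, and 3 of 4 lay above the highest circulating one. The difference of 2.82 ± 1.05 (edgeR unadjusted p = 0.00929, adjusted p = 0.213; exact permutation p = 0.2) rested on the highest value, which is 152 counts in a library of 129025. Without cKO lung CCR6-CD69- replicate 4 the difference was 0.66 (edgeR adjusted p = 0.806). WT lung libraries spread less, at 125, 96.8, 82.6 and 56.4 CPM in the CCR6+CD69+ population and at 130.2, 143, 88.1 and 69.1 CPM in the other.

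Trim5 shares much of its transcript with relatives, so its counts are uncertain. Of the 31-base windows in its longest coding transcript (3655 bases in GENCODE M21), 55.2% also occur in transcripts of other genes, 39.5% in Trim12c and 12.5% in Trim12a, which is not analysed here. The shares were 1.42% for Nrp2, 0.037% for Scai and 0 for Tbc1d9. The tool that made the counts and its treatment of shared reads are not given in the sources used here. In WT, Trim12c was at 111 to 342 CPM in circulating, 135 to 192 CPM in lung CCR6+CD69+ and 60.4 to 116 CPM in lung CCR6-CD69- libraries, and each lung range overlaps the circulating one. The sum of Trim5 and Trim12c, taken after these values were seen, was 218 ± 97.0 CPM (SD, n = 4) in WT circulating, 243 ± 51.4 CPM in WT lung CCR6+CD69+ and 205 ± 36.4 CPM in WT lung CCR6-CD69- libraries, and these ranges overlap. Trim5 made up 0 to 8.73% of that sum in WT circulating libraries and 28.3 to 68.3% in WT lung ones. In cKO libraries its share was 19.2 to 69.8% in circulating, 14.0 to 68.0% in lung CCR6+CD69+ and 45.6 to 100% in lung CCR6-CD69- cells. The summed level was 121 ± 41.3 CPM in cKO circulating, 250 ± 150 CPM in cKO lung CCR6+CD69+ and 404 ± 520 CPM in cKO lung CCR6-CD69- libraries, again with overlap. WT lung and WT circulating libraries overlapped in the sum and not in the share. Low Trim5 counts in WT circulating libraries chose the gene, so its low share there follows from the choice and nothing is read from it. How reads were assigned between the 2 genes was not tested.

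**Figure D4:**
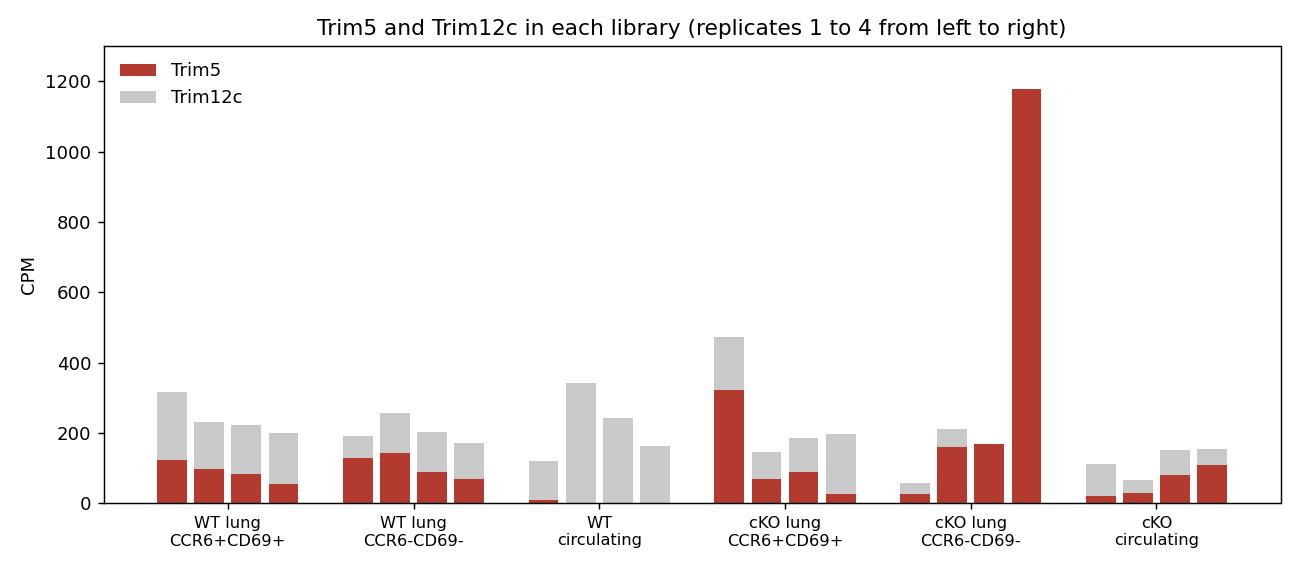
CPM of Trim5 (red) with that of Trim12c (grey) stacked on it, 1 bar per library, replicates 1 to 4 from left to right in each group. The stacked height overlaps between WT circulating and WT lung libraries. The red share is 0 to 8.73% in WT circulating and 28.3 to 68.3% in WT lung libraries, which follows from how Trim5 was chosen. The bar of 1178 CPM is the library of 129025 counts.

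Scai, the cofactor that restrains Mrtfa and Srf, was the one member whose cKO lung CCR6+CD69+ level stood clear of both other cKO populations. It was at 559.6, 527, 650.0 and 912 CPM there, at 86.8, 139, 272 and 109 CPM in cKO lung CCR6-CD69- and at 63.0, 299, 80.4 and 48.3 CPM in cKO circulating libraries. All 4 CCR6+CD69+ libraries lay above all 8 others, as for 1.08% of all genes, and the other two populations overlap. Against circulating the difference was 1.96 ± 0.64 (log2, SE; 95% interval 0.67 to 3.25), with an unadjusted p of 0.00343 and an adjusted p of 0.135 in edgeR, and an exact permutation p of 0.0286. Circulating replicate 2, at 299 CPM, set much of that spread. Without cKO circulating replicate 2 the difference was 3.21 (edgeR adjusted p = 0.00352), and without the 2 libraries under 500000 counts it was 2.17 (edgeR adjusted p = 0.00690). DESeq2 gave 2.03 (adjusted p = 0.00733) and limma voom with sample weights 2.40 (adjusted p = 0.0436). These 4 were the only ones of 20 alternatives that passed. The other 16 did not, with a lowest difference of 1.54 and an edgeR adjusted p of up to 0.503. The ratio of means was 5.40, with 3.00 in batch 1 and 12.1 in batch 2. Against lung CCR6-CD69- the difference was 2.12 ± 0.64 (interval 0.84 to 3.39, edgeR unadjusted p = 0.00151, adjusted p = 0.163; exact permutation p = 0.0286), and DESeq2 gave 1.85 (adjusted p = 0.0247). The other 19 of 20 alternatives did not pass there. Of the genes tested, 3.92% had all CCR6+CD69+ libraries above all CCR6-CD69- ones in cKO, and 0.457% passed the adjusted threshold in that comparison, all as lower in CCR6+CD69+. In cKO lung CCR6-CD69- against circulating cells the fitted difference was -0.16 (interval -1.42 to 1.11, edgeR adjusted p = 0.930), and 0 of 4 libraries exceeded the highest circulating one, replicate 2. Without cKO circulating replicate 2 it was 1.08 (edgeR adjusted p = 0.420).

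In WT, Scai was high in both lung populations, at 337, 286, 666 and 771 CPM in the CCR6+CD69+, 275, 406, 489 and 337 CPM in the CCR6-CD69- and 63.2, 44.8, 131 and 90.5 CPM in circulating libraries. The 4 WT lung CCR6-CD69- libraries all lay above the 4 cKO ones, by a narrow margin of 275 to 272 CPM and in an order that 5.21% of all genes had. The WT libraries were part of the choice, so nothing is read from this order or from the fitted cKO minus WT difference of -1.18 ± 0.62 (log2, SE). In CCR6+CD69+ cells that difference was 0.48. B cell markers summed to 3181 to 4615 CPM in the WT and 1913 to 4216 CPM in the cKO lung CCR6-CD69- libraries.

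**Figure D5:**
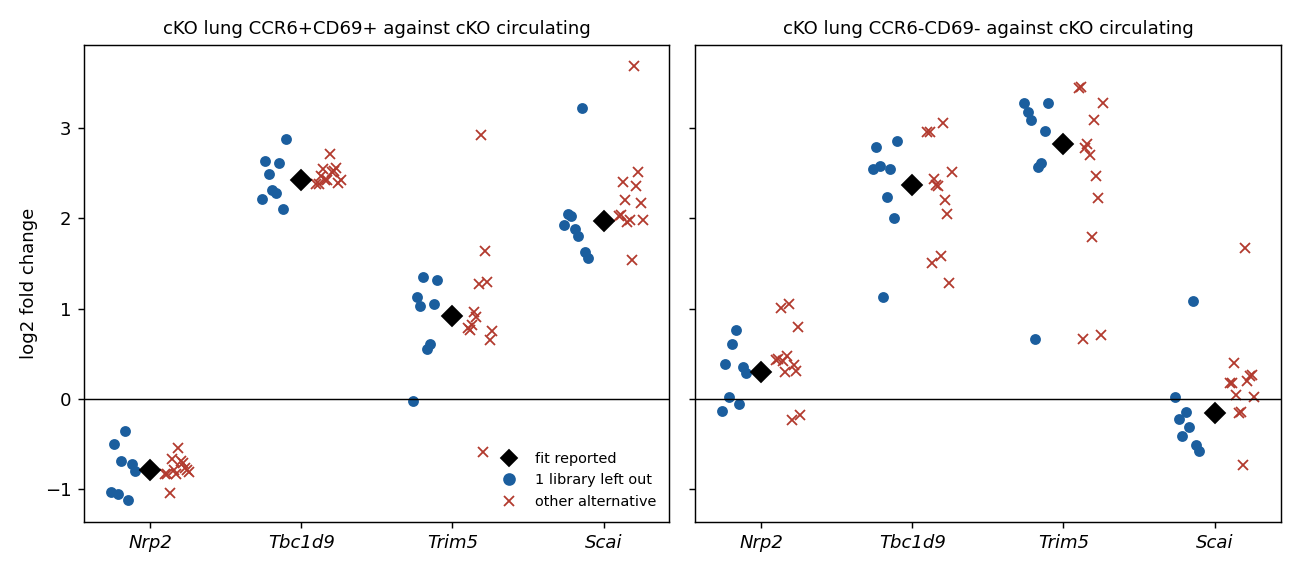
Log2 fold change against cKO circulating libraries (vertical axis) for each gene in cKO lung CCR6+CD69+ (left) and cKO lung CCR6-CD69- cells (right); diamonds are the fit reported, circles leave out 1 library and crosses are other alternatives. Tbc1d9 stays above 0 throughout, Scai does so at left only, and single circles near 0.66 and 1.13 at right are Trim5 and Tbc1d9 without the shallowest library.

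Ordering the 6 groups by mean CPM put WT circulating last for all 4 genes. For Scai this rests on cKO circulating replicate 2, and the medians were 76.8 CPM in WT and 71.7 CPM in cKO circulating libraries. Neighbouring groups in that order overlapped except in 3 places: for Nrp2 the lowest group, WT circulating, lay clear of cKO lung CCR6+CD69+ (as in 3.48% of all genes), for Trim5 it lay clear of cKO circulating, and for Scai cKO lung CCR6-CD69- lay clear of WT lung CCR6-CD69-. Each of the 3 involves WT libraries that chose the genes, so nothing is read from them. Over the 12 WT libraries log2 CPM of the 4 genes correlated at 0.911 to 0.980 in pairs (Pearson's r), which follows from how they were picked. Over the 12 cKO libraries the 6 pairs ranged from -0.564 for Nrp2 with Trim5 to 0.514 for Tbc1d9 with Scai. Without the shallowest library, over 11, Nrp2 with Trim5 was at 0.105 and Tbc1d9 with Scai at 0.685. These are descriptions over few libraries that share groups, batches and depth. Batch 2 minus batch 1 was -1.29 ± 0.68 (log2, SE) for Nrp2 (edgeR adjusted p = 0.285) and closer to 0 for the other three (edgeR adjusted p = 0.592 to 0.975), where 7.82% of all genes passed.

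None of 6 relatives and partners passed the test between lung CCR6+CD69+ and circulating cells, nor an unadjusted p under 0.05. Against circulating in cKO, lung CCR6+CD69+ differed by -0.29 ± 1.65 (log2, SE) for Nrp1, the other neuropilin, 0.25 ± 1.02 for Tbc1d9b, 0.84 ± 0.94 for Trim12c, -0.92 ± 0.79 for Trim30a, -0.12 ± 0.88 for Mrtfa and 0.09 ± 0.99 for Srf, and 0 of 6 passed. Trim30d is not analysed here. In WT the same 6 differed by -1.48, -0.40, -0.43, -0.64, 0.72 and -0.20, and 0 of 6 passed, where 1.18% of all genes did. Srf, the factor that Scai restrains through Mrtfa, was at 68.2 ± 46.4 CPM (SD, n = 4) in cKO lung CCR6+CD69+ and 68.6 ± 50.2 CPM in cKO circulating libraries.

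In wider lists around each gene, 1 gene passed the adjusted threshold in cKO lung CCR6+CD69+ against circulating cells, where 1.53% of all genes did and 12.8% had an unadjusted p under 0.05. Of 37 semaphorin, plexin and VEGF genes 22 have a row and 13 were tested; 4 were higher and 9 lower in value, with a median log2 difference of -1.39 beside -0.00656 over all genes, and 0 passed (4 at an unadjusted p under 0.05). Of 34 tripartite motif genes 18 were tested; 10 were higher and 8 lower in value, with a median of 0.23, and 0 passed at either p. Of 40 genes of the Mrtfa, Srf and actin list 19 were tested; 8 were higher and 11 lower in value, with a median of -0.12, and 0 passed (1 unadjusted). Of 38 TBC-domain genes 20 were tested; 11 were higher and 9 lower in value, with a median of 0.32, and 1 fell. That gene, Tbc1d8, a relative of Tbc1d9, ran opposite to it: it was at 0 to 19.0 CPM in cKO lung CCR6+CD69+, 154 to 971 CPM in cKO lung CCR6-CD69- and 280 to 1557 CPM in cKO circulating libraries. The fall against circulating was -7.61 ± 1.26 in cKO (edgeR adjusted p = 9.39e-04) and -7.03 ± 1.24 in WT (edgeR adjusted p = 0.00197). Against lung CCR6-CD69- it was -7.20 ± 1.29 in cKO (edgeR adjusted p = 0.00561), a call lost with no batch term (adjusted p = 0.247) and with the replicate block (adjusted p = 0.0829). In the mean of both cKO lung groups, where 2.4% of all genes passed, 1 gene of the Scai list did, Fhl2, a LIM-domain cofactor, at -7.53 ± 2.17 (edgeR adjusted p = 0.0443). That call rests on 1 library: without cKO circulating replicate 4 it was -3.87 (edgeR adjusted p = 0.350). Fhl2 had 1 count in cKO lung CCR6+CD69+ and 0 in cKO lung CCR6-CD69- libraries, and 158 in cKO circulating replicate 4 beside 3, 1 and 0 in the other three; the size of a fit against a group at 0 depends on the prior count and is no bound.

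The genes whose log2 CPM followed each member most closely over the 24 libraries, after each batch's mean was taken off, were ranked among 6778 others. Scai was most like Ms4a1, the gene of the B cell marker CD20 (r = 0.890), the histone methyltransferase gene Kmt2a (0.889) and the early growth response gene Egr2 (0.880). Ms4a1 was at 1542 ± 227 CPM (SD, n = 4) in cKO lung CCR6+CD69+, 870 ± 215 CPM in cKO lung CCR6-CD69- and 608 ± 112 CPM in cKO circulating libraries, and at 1385 ± 123, 1066 ± 217 and 557 ± 232 CPM in WT. Over the 12 cKO libraries alone Ms4a1 (0.927) and Kmt2a (0.897) were again the nearest to Scai. Tbc1d9 and Trim5 were each other's nearest (0.835), followed by Golm2 (0.832) and the cholesterol exporter gene Abca1 (0.815) for Tbc1d9 and by Zmym6 (0.813) and Patl1 (0.806) for Trim5. Nrp2 was most like Bcl2a1b (0.862), Mmp24os1 (0.855) and Aatf (0.809). None of these nearest genes of Nrp2, Tbc1d9 and Trim5 was among their nearest 3 over the cKO libraries alone. Tbc1d9 and Trim5 correlated at 0.418 there. The 24 libraries include the 12 WT ones that chose the 4 genes, so closeness between members over them follows in part from the choice. Points in these correlations share group, depth and library, and no test is attached to them.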

How the data were processed

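The table of counts, as deposited by the authors, holds whole numbers in 18470 rows named by gene symbol and 1 column per sample. Per the submitters' processing notes, FastQC, STAR, Salmon and build mm39 were used, with no versions or roles. PolyA RNA was extracted with a Zymo microprep kit and made into libraries with an xGen kit adapted to few cells, per the labels' protocols. Samples were grouped by the labels. The members, gene lists, motifs and tests were chosen with earlier results of these data known.

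CPM is the count over the library's total. Tests ran in R 4.3.3 with edgeR 4.0.16 on all 24 libraries: filterByExpr by group, TMM scaling, terms for group and batch, and a robust quasi-likelihood F-test. P-values were adjusted over the 6779 genes kept by Benjamini and Hochberg's method (threshold 0.05), and SE is the fold change over the root of F. Exact permutation tests used log2 CPM (prior count 2) over 70 arrangements and are not adjusted. Scripts were tested on simulated data for cKO lung CCR6+CD69+ against circulating. There edgeR called 12% of 100 genes changed 4-fold and 53% of 100 genes changed 16-fold. Named genes were the 4 members, 8 relatives or partners whatever their values, the 3 genes most like each member, and list genes past the threshold. Alternatives were DESeq2 1.42.0, limma 3.58.1 voom, other scaling and filters, batches, subsets and each cKO library left out.

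Same-numbered libraries deviated from their group means together (r 0.0795 to 0.228 over 24 pairs). Within batches r was -0.0313 to 0.0861. With 2 libraries per group and batch, both numbers of a genotype and batch give the same r. This check cannot decide whether equal numbers were the same animal, and the labels do not say. The numbers were therefore used only in the replicate block, an alternative.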

Additional observations from a re-analysis of the deposited data

Results flagged for a closer look

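Of the 24 gene and group combinations, 3 had 1 library standing far from the other three of its group, by Dixon's 95% test for groups of 4; chance flags about 1 in 20 such groups. Trim5 in WT circulating replicate 1 was at 10.6 CPM, where the other three were at 0 to 0.405 CPM (gap 0.962 of the range). Trim5 in cKO lung CCR6-CD69- replicate 4 was at 1178 CPM, where the others were at 26.7 to 169 CPM (0.876), and this is the library of 129025 counts. Scai in cKO circulating replicate 2 was at 299 CPM, where the others were at 48.3 to 80.4 CPM (0.872). What set these 3 values apart was not tested.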

How the results depend on the processing

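Counts of genes passing the threshold moved by over 1.5 times under several alternatives. For cKO lung CCR6+CD69+ against circulating (104 genes) they were 488 with DESeq2, 52 in batch 1, 15 in batch 2, 63 in the 12 cKO libraries and 213 without the libraries under 500000 counts, with 64 to 117 when 1 library was left out. For lung CCR6-CD69- against circulating (21 genes, 2 higher and 19 lower) they were 51 with RLE factors (29 higher and 22 lower), 520 with DESeq2, 12 with voom, 101 with no filter, 9 with no batch term, 1 and 11 in the batches, 3 in the 12 cKO libraries and 10 without the low-depth ones, with 13 to 31 on leaving 1 out. RLE factors moved the median of all genes there from -0.264 to -0.0717. For the lung mean (163 genes) they were 572 with DESeq2, 31 in batch 2, 66 in the 12 cKO libraries and 100 with the replicate number as a block, with 116 to 217 on leaving 1 out. Between the lung populations (31 genes) they were 55 with RLE factors, 347 with DESeq2, 84 with no filter, 13 with no batch term, 8 in each batch, 16 in the 12 cKO libraries and 20 with the replicate block, with 12 to 38 on leaving 1 out. The replicate block gave 87 and 15 genes in the first and second comparisons, and 0 of the 4 members passed under it.

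Of 336 values of the 4 members under alternatives, 294 kept sign and side of the threshold, 10 passed the threshold and 32 changed sign. Scai in lung CCR6-CD69- against circulating (-0.16) was 0.17 with RLE factors, 0.17 with DESeq2, 0.39 with voom, 0.045 with no filter, 1.66 in batch 2, 0.20 in the 12 cKO libraries, 0.26 with the replicate block, 0.26 without low-depth libraries, 0.020 without Chil3-led ones and -0.58 to 1.08 on leaving 1 out, the last without circulating replicate 2. Nrp2 in the same comparison was -0.23 in batch 2, -0.18 without Chil3-led libraries and -0.13 to 0.76 on leaving 1 out; its lung mean was 0.25 in batch 1, 0.0065 without low-depth libraries and -0.59 to 0.20 on leaving 1 out. Trim5 in lung CCR6+CD69+ against circulating was -0.59 in batch 2 and -0.025 to 1.35 on leaving 1 out; between the lung populations it was 0.16 with voom, 1.13 in batch 1 and -2.79 to 0.056 on leaving 1 out. Tbc1d9 between the lung populations (0.05) was -0.57 with RLE factors, -0.57 with DESeq2, -0.54 in batch 2, -0.091 without Chil3-led libraries and -0.36 to 1.27 on leaving 1 out. The cause was not tested. The 10 that passed were 4 for Scai in lung CCR6+CD69+ against circulating, 1 for its lung mean without cKO circulating replicate 2 (2.15, edgeR adjusted p = 0.0447), 5 with DESeq2 besides. Dispersion between libraries was high (biological coefficient of variation 1.1), and libraries as shallow as 129025 counts leave a level under 23.3 CPM unseen.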
